A study of Mus musculus with 6 samples.

Results

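Immediate early genes and the feedback genes of the ERK pathway were examined in livers that lack Mig-6 and in livers that keep it. The set was a list of 38 genes, chosen by name with earlier results of these data known. It took in immediate early genes, transcription factors that depend on ERK, and feedback inhibitors of the DUSP, Sprouty and Spred families. All probe sets named for 1 of these genes alone were taken, which gave 77 probe sets for 37 of the 38 genes, out of 18193 genes named this way on the array. Etv1 had probe sets only in common with a further gene and was not analysed here. Of the 37 genes, 32 were bright enough to be tested, and 5 lay under the filter on dim probe sets. The comparison lists below were chosen in the same way, so shares set beside those of all genes describe and do not test.

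Growth factors bind receptors such as EGFR, and the signal passes through RAS, RAF and MEK to the kinases ERK1 and ERK2. ERK then switches on immediate early genes such as Fos and Egr1 within minutes and without new protein synthesis, and the pathway also induces its own brakes, the DUSP phosphatases and the Sprouty and Spred proteins. Mig-6, the protein of Errfi1, is itself such a brake and acts on the EGF receptor family. In liver, immediate early genes are known for their response to partial hepatectomy, hormones and stress.

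The Mig-6 d/d group held 3 arrays and the Mig-6 f/f group 3 arrays, each of total liver RNA from male mice of mixed background, 8 weeks old, on standard chow and fasted for 24 h. What deletes the gene, in which cells, and whether each array stands for a separate animal are not given in the sources used here. The p-values cover only the spread among the 6 arrays, which may be technical. Each difference is the d/d mean less the f/f mean of log2(intensity + 16), given ± the standard error from limma (n = 3 for either genotype). The added 16 makes differences of dim genes too small. A gene is said to pass where its p, adjusted by Benjamini-Hochberg over all 13718 genes tested, was under 0.05.

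Errfi1, the targeted gene, had intensities of 68.0, 61.8 and 59.6 in d/d livers, against 5371, 5424 and 5686 in f/f livers. It fell by 6.10 on the log2 scale (SE 0.10, limma, adjusted p = 4.91e-08). The extent of the deletion and the probe set's place in it are not given in the sources used here. The median intensity of the 6 arrays lay between 55.6 and 65.4. One array, f/f replicate 3, lay apart from the others: its 3 control probe sets for 18S ribosomal RNA averaged 3807, against 218 to 455 on the other arrays, and its mean correlation with them was 0.963 where theirs were 0.978 to 0.981. For many members the value without it is given too. The hepatocyte markers, of which 7 of 8 listed were tested, summed to intensities of 133230 to 135939 in d/d livers and 135646 to 140055 in f/f livers. The defining markers of liver were thus bright in both genotypes. Of the 7, 6 were lower in d/d livers and 1 higher, with a median difference of -0.017 and a lowest of -0.39, and 0 passed.

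None of the 32 members passed in limma, so 0 rose and 0 fell, where 0.0948% of all genes tested passed, 0.0437% higher and 0.051% lower in d/d livers. With array weights 2 members passed, 6.25% against 1.57% of all genes, and without f/f replicate 3 it was 1, 3.12% against 0.641%. At an unadjusted p under 0.05 stood 6 of the 32, 18.8%, against 7.84% of all genes. These were 4 with higher values in d/d livers, Dusp16, Egr1, Phlda1 and Zfp36 (12.5%, against 4.77% of all genes), and 2 with lower ones, Jun and Dusp3 (6.25%, against 3.07%). After normalization the genotypes did not overlap for 5 members, 15.6%, close to the 14.7% of all genes: Dusp16 and Phlda1 were higher in d/d livers (6.25%, against 7.9% of all genes), and Dusp3, Egr3 and Jund lower (9.38%, against 6.79%). The members split into 15 higher, 46.9% against 46.5% of all genes, and 17 lower, with a median difference of -0.022, beside -0.015 over all genes. Its sign turned when f/f replicate 2 (0.027) or f/f replicate 3 (0.0076) was left out, and with the mean of a gene's probe sets (0.013). Of the 77 single probe sets, 0 passed, against 0.0744% of all probe sets, and 10 had an unadjusted p under 0.05, 13% against 6.81%. The genotypes did not overlap for 10 of them, 13% against 13.1%, and 37 were higher in d/d livers, 48.1% against 47.8%.

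**Figure D1:**
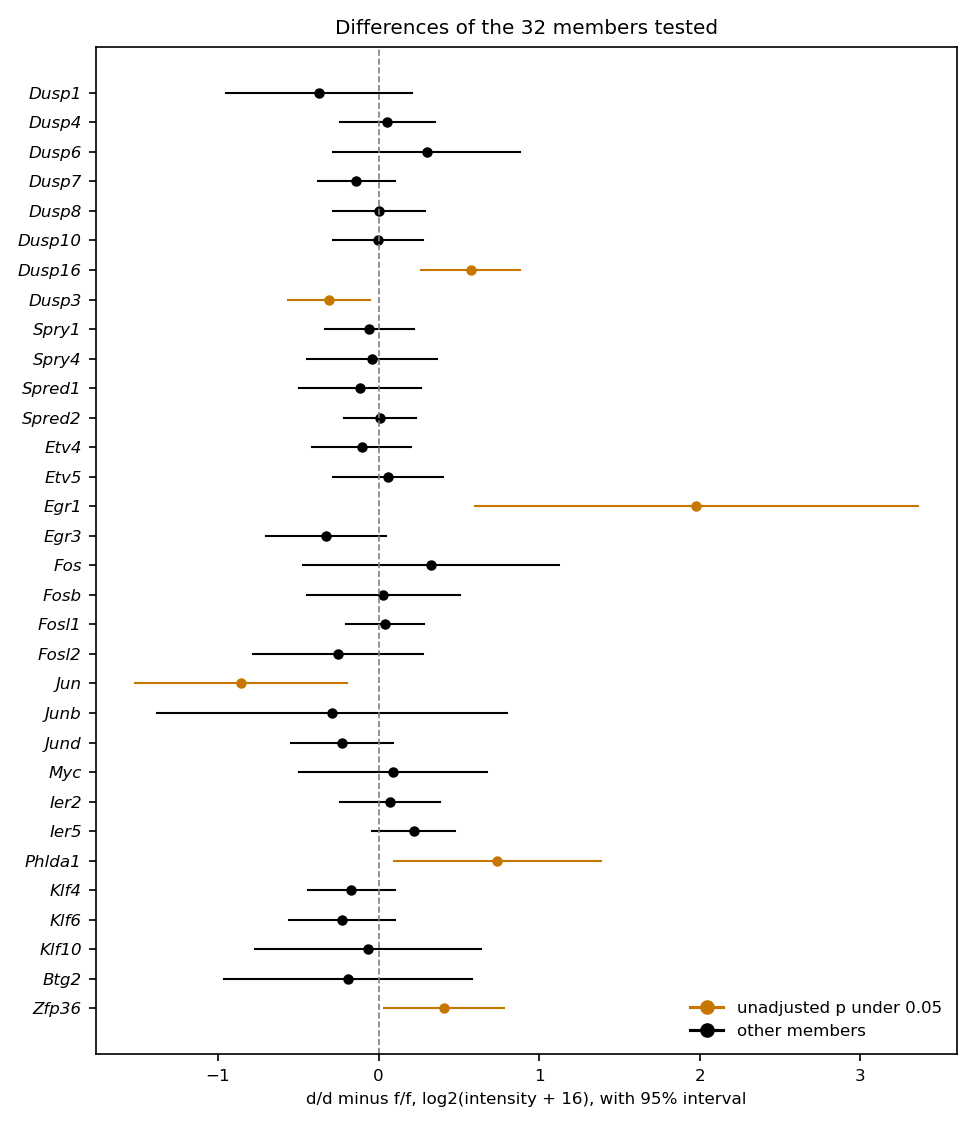
Difference of each of the 32 members tested, as the d/d mean less the f/f mean of log2(intensity + 16) (horizontal axis), with points for the fitted difference and lines for its 95% interval; genes run in order of role. The 6 members with an unadjusted p under 0.05 are coloured, and Egr1 at 1.98 lies farthest from 0 and has the widest interval.

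Egr1, a zinc finger transcription factor and a standard readout of ERK activity, had the largest difference among the members. Its intensity was 347, 949 and 2199 in d/d livers, against 221, 354 and 142 in f/f livers. The d/d arrays were spread over a wide range, and the lowest of them lay just under the highest f/f array, so the genotypes overlapped. The fitted difference was 1.98 ± 0.60 (limma, adjusted p = 0.39, 95% interval 0.60 to 3.36), or 3.94 times higher in d/d livers, and did not pass. It was 1.33 without d/d replicate 3, 1.64 without f/f replicate 3 and 2.64 without d/d replicate 1, and the adjusted p stayed between 0.29 and 0.922 over all alternatives. Egr3, a relative that is induced in a similar way, ran the other way, with 266, 285 and 203 in d/d livers against 289, 286 and 381 in f/f livers, a difference of -0.33 ± 0.16 (limma, adjusted p = 0.702). Its genotypes did not overlap, though only by a small margin, and the difference was -0.19 without d/d replicate 3 and -0.20 without f/f replicate 3. Its other probe set was dim and gave -0.063. Egr2, needed for myelination in Schwann cells, was dim on both of its probe sets, with intensities of 12.4 to 27.6 in d/d livers and 18 to 32.9 in f/f livers.

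The AP-1 factors are dimers of Fos and Jun proteins, and all 7 members of these families were tested. None passed, 3 had a positive and 4 a negative difference. Jun, the c-Jun subunit that is activated by JNK, had 90.3, 81.7 and 121 in d/d livers, against 193, 285 and 126 in f/f livers. All deposited d/d values were under all f/f values, but the nearest pair, d/d replicate 3 and f/f replicate 3, was close and crossed after normalization. The difference was -0.85 ± 0.29 (limma, adjusted p = 0.47, 95% interval -1.51 to -0.20), or 1.81 times lower in d/d livers. Without f/f replicate 3 it was -1.17 and passed narrowly (limma, adjusted p = 0.04995), and with array weights, which gave that array a weight of 0.178, it was -1.17 and passed (adjusted p = 0.0193). Without f/f replicate 2, the highest array, it was -0.57, and over all alternatives the adjusted p ran from 0.0193 to 0.97. The second probe set of Jun read 98.5, 85.9 and 95.5 in d/d livers, against 109, 162 and 115 in f/f livers, a difference of -0.37 ± 0.16 with no overlap (limma over all probe sets, adjusted p = 0.723).

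Junb, another immediate early Jun protein, had 97.0, 126 and 221 in d/d livers, against 179, 361 and 84.6 in f/f livers. The f/f arrays alone covered the whole range of the d/d arrays, and the difference of -0.29 ± 0.48 (limma, adjusted p = 0.911) changed sign without f/f replicate 2 (0.20). It was -0.81 without f/f replicate 3. Jund, which many tissues express without a stimulus, had 145, 150 and 129 in d/d livers, against 147, 207 and 164 in f/f livers, a difference of -0.23 ± 0.14 (limma, adjusted p = 0.774), and -0.18 on its second probe set. Without f/f replicate 2 the difference of Jund was -0.088. All 3 Jun genes thus had values that averaged lower in d/d livers, though none passed and Junb depended on 1 array.

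Fos, the c-Fos subunit and the classic serum-induced gene, was near the dim limit on 5 arrays. It read 44.8, 56.5 and 156 in d/d livers, against 57.4, 54.0 and 59.7 in f/f livers. Only d/d replicate 3 stood above the rest, and the difference of 0.32 ± 0.35 (limma, adjusted p = 0.859) became -0.15 without that array. Fosb had 82.1, 50.3 and 35.8 in d/d livers, against 51.9, 45.3 and 62.5 in f/f livers, with the d/d arrays on both sides of the f/f arrays and a difference of 0.030 ± 0.21. Fosl1, the Fra-1 protein and a late ERK target, had 0.040 ± 0.11 and intensities of 68.4 to 82.4 in d/d livers and 71.7 to 75.9 in f/f livers. Fosl2, the Fra-2 protein, had -0.25 ± 0.23 and -0.24 on its 2 probe sets, and -0.033 without f/f replicate 3 on the brighter one.

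**Figure D2:**
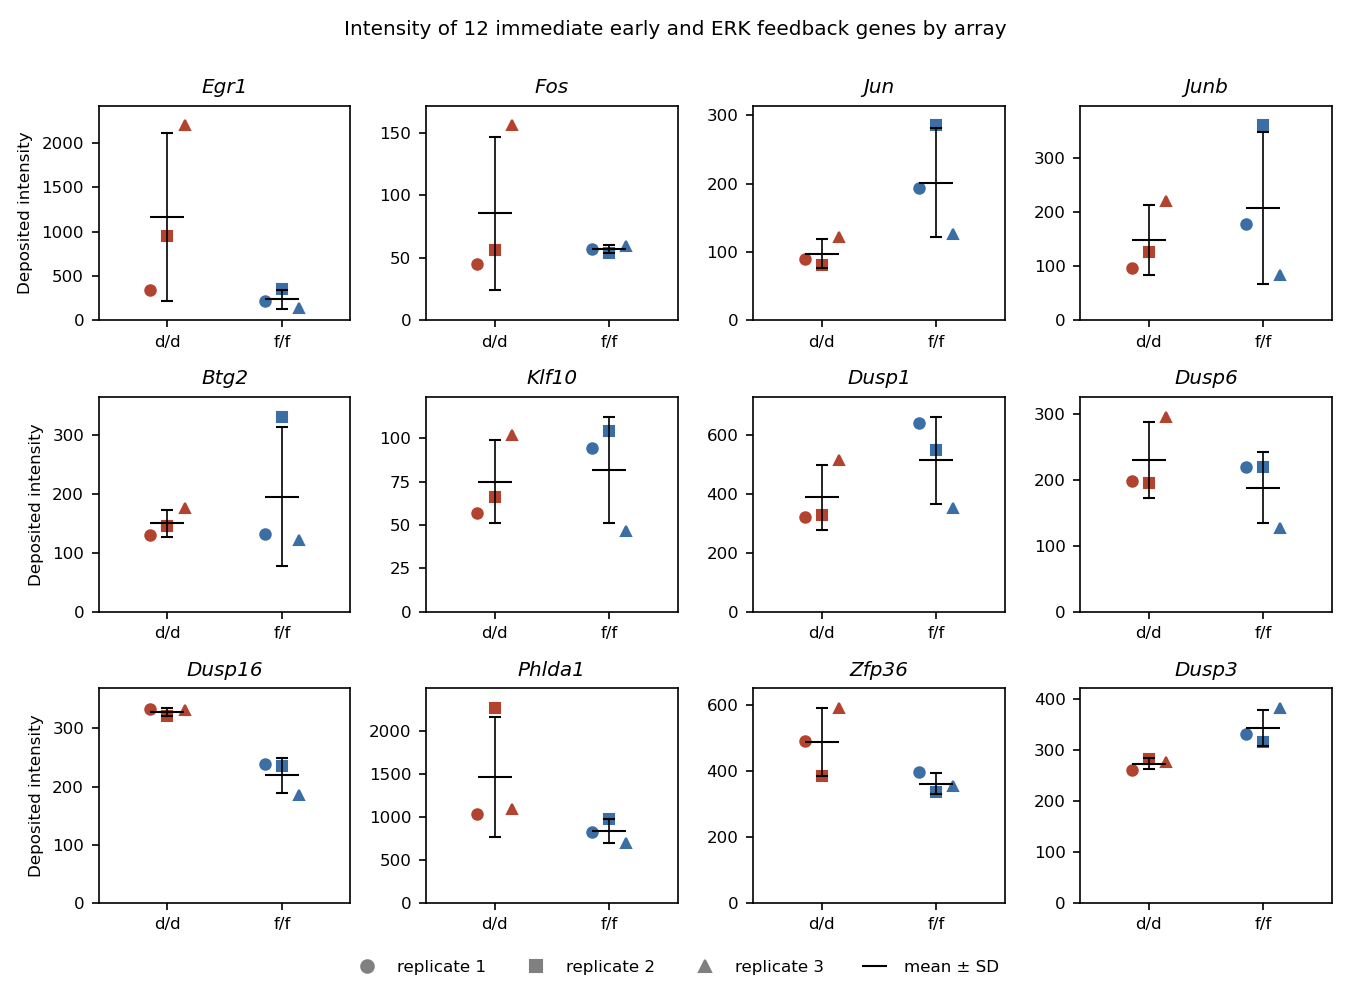
Deposited intensity (vertical axis, linear) of 12 members in the 3 d/d and 3 f/f arrays, with a symbol for each replicate number and a bar for the mean ± SD. The 3 d/d arrays of Dusp16 lie between 321 and 333, above all f/f arrays, whereas those of Egr1 run between 347 and 2199.

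Dusp16, the MKP-7 phosphatase that acts on JNK and p38, was the member with the lowest p. It read 333, 321 and 332 in d/d livers, against 239, 235 and 185 in f/f livers. The d/d arrays were nearly equal and all lay above the f/f arrays. The difference was 0.57 ± 0.14 (limma, adjusted p = 0.239, 95% interval 0.26 to 0.88), or 1.49 times higher in d/d livers. It did not pass, and was 0.44 without f/f replicate 3 (limma, adjusted p = 0.095). With array weights it was 0.46 and passed (adjusted p = 0.0414), and over all alternatives the adjusted p ran from 0.0414 to 0.793. The second probe set of Dusp16 was dim, at 24.0 to 27.8 in d/d livers and 19.3 to 26.4 in f/f livers, and gave 0.16. Dusp3, the small VHR phosphatase that acts on ERK and JNK, had 261, 283 and 277 in d/d livers, against 332, 316 and 383 in f/f livers. These did not overlap, and the difference was -0.31 ± 0.11 (limma, adjusted p = 0.525). Its other probe sets gave -0.17, with no overlap in the deposited values but overlap after normalization, and -0.20, with overlap in both.

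The phosphatases most tied to ERK feedback did not pass either. Dusp6, the MKP-3 enzyme that is specific for ERK and is induced by ERK activity, had 198, 195 and 297 in d/d livers, against 219, 219 and 127 in f/f livers. The highest and the lowest array belonged to replicate 3 of each genotype, and the other 4 lay close together. The difference was 0.30 ± 0.25 (limma, adjusted p = 0.827, 95% interval -0.28 to 0.88), and 0.016 without f/f replicate 3. Dusp1, the MKP-1 enzyme that is itself an immediate early gene, had 323, 329 and 518 in d/d livers, against 643, 551 and 351 in f/f livers, with overlap between the genotypes. Its difference was -0.37 ± 0.25 (limma, adjusted p = 0.798), -0.62 without f/f replicate 3, and -0.18 when f/f replicate 1 was left out. Dusp7, an ERK phosphatase of the cytoplasm, had -0.14 ± 0.10 (95% interval -0.38 to 0.10). Dusp4, the nuclear MKP-2, had 0.055 ± 0.13 near the dim limit, with intensities of 43.5 to 59.6 in d/d livers and 47.9 to 56.7 in f/f livers.

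Dusp8 and Dusp10, which act on JNK and p38 like Dusp16, had 0.0022 ± 0.12 and -0.0047 ± 0.12, with 95% intervals of -0.28 to 0.29 and -0.28 to 0.28. Dusp2 and Dusp5, both nuclear and inducible, were under the dim filter on their only probe sets. Dusp5 read 53.8, 41.4 and 51.1 in d/d livers, against 35.6, 36.5 and 41.6 in f/f livers, so that the lowest d/d array and the highest f/f array were nearly equal, and after normalization the genotypes did not overlap (0.28 ± 0.12). Dusp2 read 40.4 to 54.2 in d/d livers and 32.5 to 52.7 in f/f livers. Of the 10 phosphatases listed, 8 were tested, 4 were higher and 4 lower, and their median difference was -0.0012.

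Sprouty and Spred proteins block RAS and RAF activation, and the PEA3 factors Etv4 and Etv5 are transcribed in response to FGF and ERK signals. On the brightest probe set of each gene, their 6 members tested had differences between -0.11 and 0.056, and none had an unadjusted p under 0.05. Spry1 had 61.9, 59.1 and 66.7 in d/d livers, against 72.3, 61.8 and 66.4 in f/f livers, a difference of -0.057 ± 0.12 (95% interval -0.34 to 0.22). Spry4 had 60.1, 65.5 and 67.1 in d/d livers, against 55, 53 and 103 in f/f livers. Here f/f replicate 3 alone was high, and the difference of -0.039 ± 0.18 became 0.17 without it. The other probe sets of Spry4 gave -0.020, 0.12 and 0.33. Spry2 was dim on both of its probe sets, at 28.8 to 46.8 in d/d livers and 20.9 to 50.9 in f/f livers.

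Spred1 read 171, 198 and 167 in d/d livers, against 178, 159 and 263 in f/f livers, with f/f replicate 3 again the highest array. Its difference was -0.11 ± 0.17, or 0.065 without that array, and its 8 probe sets ran from -0.19 to 0.37. The probe set at 0.37 ± 0.13 was dim, at 31.5 to 40.5 in d/d livers and 21.7 to 26.3 in f/f livers. It had no overlap and an unadjusted p under 0.05, but did not pass (limma over all probe sets, adjusted p = 0.59). The brightest probe set of Spred2 was even across all arrays, at 100.3, 109 and 104 in d/d livers against 99.0, 103 and 113 in f/f livers. Its difference was 0.0075 ± 0.097 (95% interval -0.22 to 0.23). The other 4 probe sets of Spred2 ran from -0.10 to 0.19, and the one at 0.19 ± 0.17 was less even, with 101, 105 and 119 in d/d livers against 97.7, 114 and 75.3 in f/f livers. Etv4 had -0.11 ± 0.13 and Etv5 0.056 ± 0.15, with 95% intervals of -0.41 to 0.20 and -0.29 to 0.40. Without f/f replicate 3 they were -0.0020 and 0.19.

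Phlda1, a pleckstrin homology protein that is induced by growth factors, had 1031, 2271 and 1096 in d/d livers, against 830, 973 and 700.0 in f/f livers. The genotypes did not overlap, but d/d replicate 2 was far above the other d/d arrays. The difference was 0.74 ± 0.28 (limma, adjusted p = 0.557, 95% interval 0.093 to 1.38), and 0.39 without d/d replicate 2. Ier2, an immediate early nuclear protein, had 0.072 ± 0.14 and overlapped, with 260, 289 and 360.3 in d/d livers against 283, 307 and 269 in f/f livers. Ier5, a regulator of heat shock factor, had 86.6, 104 and 91.7 in d/d livers, against 72.6, 85.2 and 81.6 in f/f livers. The deposited values of Ier5 did not overlap, the normalized ones did, and the difference was 0.22 ± 0.11 (limma, adjusted p = 0.714). Its other probe sets gave 0.043 and -0.23. Ier3 was dim, at 32.6 to 41.5 in d/d livers and 37.1 to 42.3 in f/f livers.

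Zfp36, also called tristetraprolin, which promotes decay of mRNAs with AU-rich elements, had 489, 383 and 589 in d/d livers, against 396, 334 and 353 in f/f livers. The lowest d/d array fell inside the f/f range, and the difference was 0.41 ± 0.16 (limma, adjusted p = 0.591, 95% interval 0.032 to 0.78), or 0.27 without d/d replicate 3. Btg2, an antiproliferative cofactor of the mRNA deadenylase complex, had 130.0, 145 and 176 in d/d livers, against 132, 332 and 122 in f/f livers. Its f/f replicate 2 was more than double every other f/f array, and its difference of -0.19 ± 0.34 became 0.25 without it and -0.47 without f/f replicate 3. The second probe set of Btg2 showed the same array on top, at 230 against 95.5 and 99.5 on the other f/f arrays, and 73.0, 71.9 and 110 in d/d livers.

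Myc, the growth-promoting transcription factor, had 59.4, 133 and 55.3 in d/d livers, against 57.1, 76.4 and 87.8 in f/f livers. On the normalized scale 1 d/d array was above all f/f arrays and the others just under them, with a difference of 0.089 ± 0.26 that became -0.23 without d/d replicate 2. Klf10, a factor induced by TGF-beta, had 56.9, 65.9 and 102 in d/d livers, against 94.4, 104 and 46.6 in f/f livers, and -0.067 ± 0.31. It was -0.41 with f/f replicate 3 left out and 0.13 with f/f replicate 2 left out. Klf4 and Klf6, zinc finger factors of the same family, had -0.17 ± 0.12 and -0.23 ± 0.14, both with overlap. Klf4 was -0.099 when f/f replicate 3 was left out, and Klf6 was -0.15 in the same fit and -0.37 when f/f replicate 1 was left out. The 4 other probe sets of Klf6 were dim and gave 0.083 to 0.39, opposite in sign to the bright one. The one at 0.39 ± 0.13 read 55.6, 56.6 and 51.3 in d/d livers, against 40.5, 42.0 and 32.2 in f/f livers, with no overlap. It had an unadjusted p under 0.05 but did not pass (limma over all probe sets, adjusted p = 0.531). The direction of Klf6 thus differed between probe sets.

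**Figure D3:**
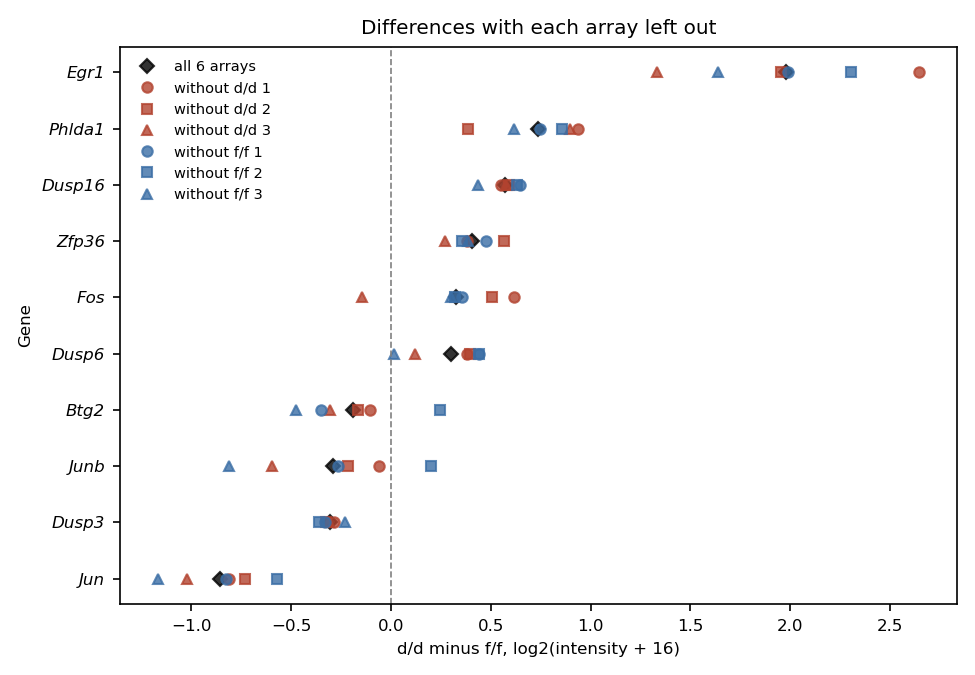
Difference of 10 members (horizontal axis, d/d mean less f/f mean of log2(intensity + 16)), fitted on all 6 arrays and with each array left out in turn (7 fits, 1 symbol each). Dusp16 stays between 0.44 and 0.65, whereas Fos, Btg2 and Junb cross 0 when 1 array is left out.

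Arrays of the same genotype differed widely in several members. The residual SD, the spread left after the genotype is fitted, had a median of 0.22 over the members and 0.16 over all genes. Among the 5% of genes with the largest residual SD were 10 of the 32 members, 31.2%, namely Egr1, Junb, Fos, Btg2, Klf10, Jun, Phlda1, Myc, Dusp6 and Dusp1. This count was 11 without f/f replicate 3 and 7, 21.9%, without d/d replicate 3, the lowest count over the alternatives. Where each of the 77 probe sets was fitted on its own it was 13 probe sets, a lower share of 16.9%. By role, 8 of them were among the 18 immediate early genes tested, and 2 among the 12 phosphatases, Sprouty and Spred genes. Dusp1, itself an immediate early gene, was counted with the phosphatases. None of the 6 Sprouty, Spred and PEA3 genes was among the 10 members, though 2 of the 6 lay in the upper quartile of residual SD over all genes. The difference between roles was not tested. A range over 1 on the log2 scale within a genotype was found for 4 members in d/d livers, 12.5%, against 0.598% of all genes, and for 5 members in f/f livers, 15.6%, against 3.34% of all genes. The f/f count was 1 without f/f replicate 3 (Btg2, 3.12% against 0.372% of all genes) and 1 without f/f replicate 2 (Junb, 3.12% against 2.06%), and the d/d count was 2 without d/d replicate 3 (Phlda1 and Egr1, 6.25% against 0.292%).

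The same arrays were high or low for several of these genes, and in part over all genes. Over all genes, d/d replicate 3 and f/f replicate 3 deviated in opposite directions (correlation -0.47). The lowest f/f array was f/f replicate 3 in 43.8% of members and 42.9% of all genes. In 10 members, 31.2%, d/d replicate 3 was the highest d/d array and f/f replicate 3 the lowest f/f array, against 24% of all genes. These were Egr1, Dusp1, Ier2, Dusp6, Btg2, Junb, Jun, Klf10, Fos and Spry1. In 7 of them, 21.9%, d/d replicate 1 was also the lowest d/d array, against 10.5% of all genes. Jun, Junb, Jund, Btg2, Klf10 and Egr1 had f/f replicate 2 as their highest f/f array. Among all members, f/f replicate 2 was highest in 12, 37.5%, against 26.9% of all genes. The labels give no time of killing, handling order or batch for the arrays, and their part in this spread was not tested.

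**Figure D4:**
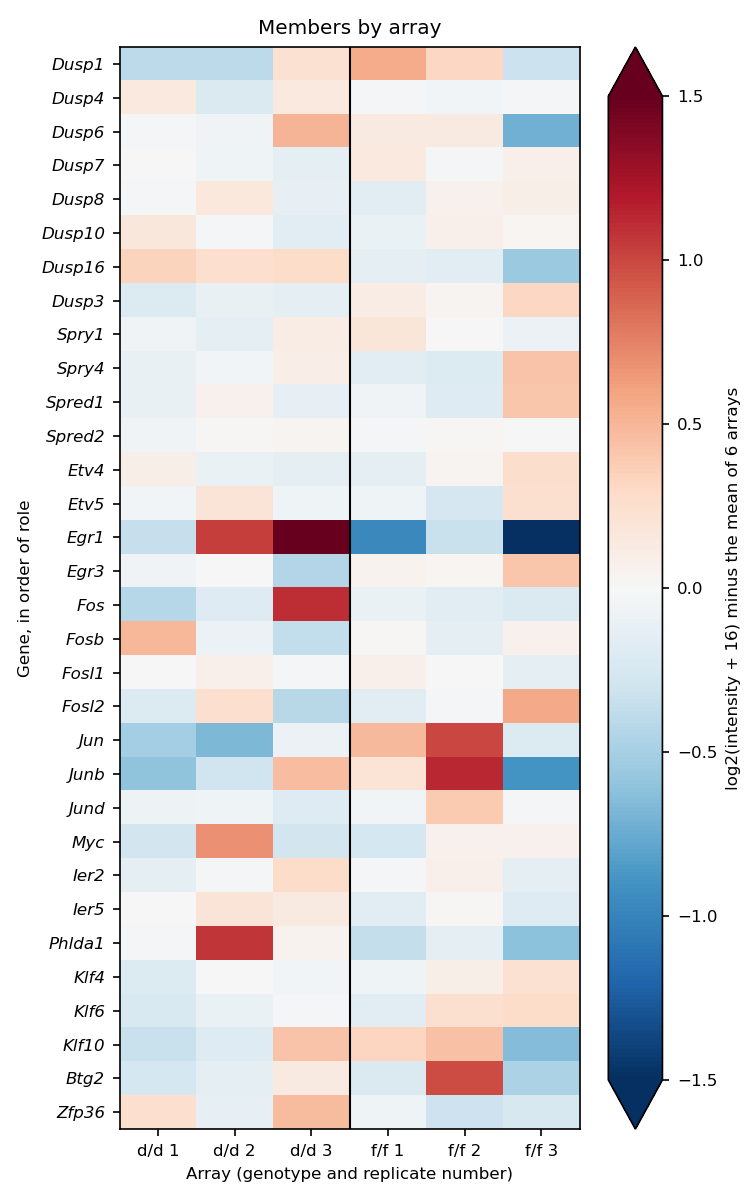
Members by array: rows are the 32 members in order of role, columns the 3 d/d and 3 f/f arrays, and colour the log2(intensity + 16) value minus the gene's mean over the 6 arrays, cut at 1.5 on both sides. Egr1 is deep red in d/d replicate 3, Jun, Junb and Btg2 are red in f/f replicate 2, and the rows of Sprouty, Spred and PEA3 genes are pale, with Spry4 and Spred1 redder in f/f replicate 3.

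**Figure D5:**
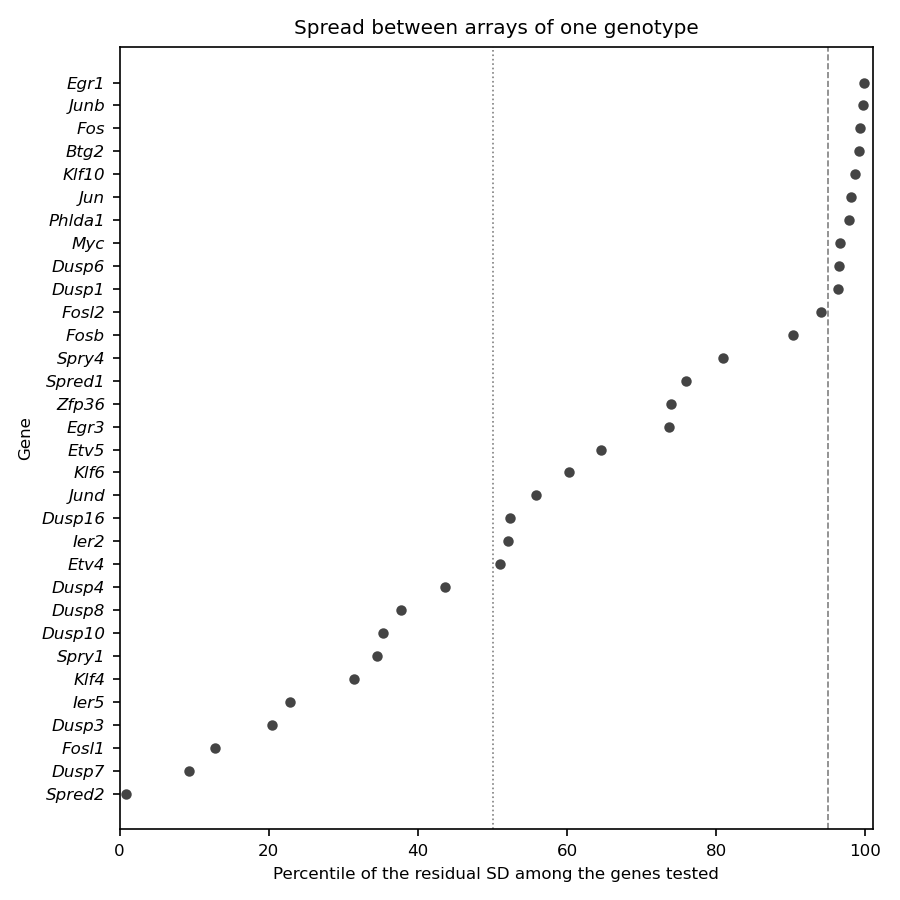
Percentile of each member's residual SD among the 13718 genes tested (horizontal axis), with a dashed line at 95 and a dotted line at 50. The 10 members right of the dashed line are led by Egr1, and Spred2 lies at 0.831.

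Promoter sequence was available for 28 of the 38 genes, with 34 windows in all. Egr1, Phlda1, Klf10 and Myc were among the 10 genes without it, so the motif shares below do not cover them. The 250 bases before the transcription start are printed for 7 genes with differences or wide spread described above. They come from RefSeq, build GRCm38.p6, and run 5′ to 3′ on the strand of the gene. The windows are Fos at chr12:85473640-85473889 on the plus strand, Jun at chr4:95052223-95052472 on the minus strand, Junb at chr8:84978749-84978998 on the minus strand, Btg2 at chr1:134079156-134079405 on the minus strand, Dusp1 at chr17:26508473-26508722 on the minus strand, Zfp36 at chr7:28379229-28379478 on the minus strand, and Dusp16 at chr6:134792629-134792878 on the minus strand. Capitals mark matches to the motifs named below the sequences, on either strand.
Fos: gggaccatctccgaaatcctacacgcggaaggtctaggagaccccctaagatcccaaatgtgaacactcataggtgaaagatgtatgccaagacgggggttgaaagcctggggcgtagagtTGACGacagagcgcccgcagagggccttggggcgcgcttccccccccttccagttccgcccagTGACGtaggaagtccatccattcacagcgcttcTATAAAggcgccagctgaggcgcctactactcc
Jun: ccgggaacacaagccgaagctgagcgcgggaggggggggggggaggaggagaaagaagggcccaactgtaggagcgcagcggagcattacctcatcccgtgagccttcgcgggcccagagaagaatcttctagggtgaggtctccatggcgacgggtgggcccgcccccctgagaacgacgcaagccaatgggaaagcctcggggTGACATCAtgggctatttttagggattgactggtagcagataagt
Junb: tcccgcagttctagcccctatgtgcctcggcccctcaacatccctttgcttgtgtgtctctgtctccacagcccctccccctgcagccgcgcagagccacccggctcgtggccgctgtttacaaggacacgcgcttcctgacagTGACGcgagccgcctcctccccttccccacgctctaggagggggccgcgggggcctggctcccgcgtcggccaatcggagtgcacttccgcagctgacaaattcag
Btg2: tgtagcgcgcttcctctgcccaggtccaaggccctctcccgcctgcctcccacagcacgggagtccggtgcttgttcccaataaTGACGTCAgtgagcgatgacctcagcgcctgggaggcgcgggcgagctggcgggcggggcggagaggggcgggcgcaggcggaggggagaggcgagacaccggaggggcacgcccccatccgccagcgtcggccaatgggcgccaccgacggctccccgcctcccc
Dusp1: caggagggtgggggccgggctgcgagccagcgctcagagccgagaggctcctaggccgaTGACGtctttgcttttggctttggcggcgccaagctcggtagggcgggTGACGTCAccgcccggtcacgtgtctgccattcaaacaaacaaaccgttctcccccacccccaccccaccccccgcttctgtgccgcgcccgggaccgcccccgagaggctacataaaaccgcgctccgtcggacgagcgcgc
Zfp36: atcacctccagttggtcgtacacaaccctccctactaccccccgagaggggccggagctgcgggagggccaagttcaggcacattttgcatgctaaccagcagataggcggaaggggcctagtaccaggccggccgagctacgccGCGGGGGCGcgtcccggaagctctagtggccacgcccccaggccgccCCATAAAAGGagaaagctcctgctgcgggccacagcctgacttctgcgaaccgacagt
Dusp16: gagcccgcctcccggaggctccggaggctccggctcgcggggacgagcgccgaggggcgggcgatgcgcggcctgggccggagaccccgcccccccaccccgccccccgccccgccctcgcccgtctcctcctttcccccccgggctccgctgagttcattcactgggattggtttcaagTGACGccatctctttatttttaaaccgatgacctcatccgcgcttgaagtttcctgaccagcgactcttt

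The cAMP response element (CRE), TGACGTCA, stood at -143 to -136 from the start in Dusp1 and at -166 to -159 in Btg2. A gene was counted where any of its windows held the motif. Among the 28 genes, 3 held this one, 10.7%, against 1.77% of the 27025 genes in the same table. The half-site TGACG, which the full element contains on both strands, was present in 11 of the 28, 39.3%, against 19.8% of all genes. It occurred in Fos at -66 to -62 and -129 to -125, in Junb at -106 to -102 and in Dusp16 at -70 to -66. Fos also had a TATAAA element at -33 to -28, found in 7.14% of the 28 and 14.3% of all genes. Zfp36 held a CArG box, the site of serum response factor, at -58 to -49, and an EGR motif, GCGGGGGCG, at -105 to -97. The CArG box was found in 10.7% of the 28 genes and 1.62% of all genes. For the EGR motif it was 17.9% of the 28 and 2.93% of all genes. The 28 include genes that were not tested, such as Dusp5 and Egr2 with the CArG box, Dusp2 with the EGR motif and Etv1 with TATAAA. Jun had the variant TGACATCA, an AP-1 site of its own promoter, at -45 to -38, with 10.7% of the 28 and 3.41% of all genes. The motif TGANTCA was in none of the 28 genes and in 7.82% of all genes. The 34 windows were also richer in G and C, with a median of 63.2% against 52.4% over all 32851 windows. A match is a string of letters in the window, and binding was not measured.

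Genes of the same pathway outside the list did not pass either. Of 37 kinases, adaptors and transcription factors of the ERK cascade, 28 had a probe set of their own and were tested, 0 rose, 0 fell, and 1 had an unadjusted p under 0.05 in limma, where 7.84% of all genes had one. That gene was Srf, serum response factor, with 160, 158 and 112 in d/d livers, against 108, 109 and 108 in f/f livers, a difference of 0.37 ± 0.14 (limma, adjusted p = 0.552). Next by p were Sos1, the RAS exchange factor (0.29 ± 0.13), Rps6ka3, the kinase RSK2 (0.38 ± 0.17), and Nras (-0.36 ± 0.18). The median over the 28 was 0.0063.

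Among 15 genes of the p38 and JNK cascades, 0 passed and 3 had an unadjusted p under 0.05 in limma, also beside 7.84% of all genes. Mapkapk2, the kinase downstream of p38 that inactivates Zfp36, had 166, 131 and 161 in d/d livers, against 222, 251 and 246 in f/f livers, with no overlap. Its difference was -0.60 ± 0.13 (limma, adjusted p = 0.193). Map2k6, a kinase that activates p38, had 0.55 ± 0.18, and Mapk9, the kinase JNK2, had 0.25 ± 0.10, both without overlap (limma, adjusted p = 0.417 and 0.591). The genes named were those of lowest p. The genotypes did not overlap for 3 of the 15 tested, beside 14.7% of all genes.

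A further list held other immediate early and stress-induced genes, of which 37 were tested. In limma 0 passed and 12 had an unadjusted p under 0.05, beside 7.84% of all genes. Of the 12, 9 were lower in d/d livers and 3 higher. The 3 higher ones include Srf, which is also on the list of the ERK cascade and is thus counted in both. Over all genes, 3.07% had such a p and were lower, and 4.77% had one and were higher. The list had 26 lower and 11 higher members, where 46.5% of all genes were higher. Its median was -0.15, beside -0.015 over all genes. Nfil3, a basic leucine zipper repressor, had 96.3, 90.5 and 108 in d/d livers, against 163, 191 and 176 in f/f livers, a difference of -0.74 ± 0.12 (limma, adjusted p = 0.103). Zfp36l1, a relative of Zfp36 that also destabilizes mRNA, had 868, 885 and 913 in d/d livers, against 1435, 1437 and 1191 in f/f livers, and -0.57 ± 0.11 (adjusted p = 0.168). Id3, an inhibitor of basic helix-loop-helix factors, had -1.0 ± 0.23, and Nr4a1, an orphan nuclear receptor that is an immediate early gene, had -0.92 ± 0.25 (limma, adjusted p = 0.228 and 0.302). All 4 had no overlap between the genotypes, but they were named for having the lowest p of the list. The genotypes did not overlap for 12 of the 37 tested, beside 14.7% of all genes. Among 9 other dual-specificity phosphatases, 0 passed and 0 had an unadjusted p under 0.05.

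Immediate early genes are also expressed in other cells of the liver, so their markers were compared. Markers of Kupffer cells, the liver's macrophages, were lower in d/d livers in 11 of 12 tested, where 46.5% of all genes were higher. These markers had a median difference of -0.24, with none past the threshold. Their summed intensity was 2764 to 3508 in d/d livers and 3201 to 4487 in f/f livers, which overlap, and the part of these cells in the values of Jun and the other lower genes was not tested. Monocyte and neutrophil markers summed to 731 to 882 in d/d livers and 769 to 1156 in f/f livers, with 4 of 6 lower. Markers of stellate cells and fibroblasts summed to 2679 to 3418 in d/d livers and 3381 to 3832 in f/f livers, with 6 of 10 lower. Those of endothelial cells summed to 1913 to 2275 in d/d livers and 1701 to 2247 in f/f livers, with 8 of 10 higher. Markers of cholangiocytes summed to 207 to 259 in d/d livers and 221 to 257 in f/f livers, with 2 of 3 lower. Those of T, B and NK cells summed to 409 to 520 in d/d livers and 360.0 to 572 in f/f livers, with 4 of 5 lower. The 1 higher marker had the largest difference, 0.93, without overlap (limma, adjusted p = 0.181). The lower ones reached -0.20 at most, and none of them had an unadjusted p under 0.05. Those of erythroid cells summed to 838 to 1014 in d/d livers and 859 to 998 in f/f livers, with 2 of 3 lower. In bulk liver RNA, fewer cells of a type and less RNA per cell cannot be told apart.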

How the data were processed

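Biotin was the label for total liver RNA, which was prepared by the Affymetrix GeneChip manual, per the labels' protocols. The authors deposited linear intensities for 45101 probe sets on 6 arrays. Their summary of probes and scaling of arrays are not given in the sources used here. Arrays were grouped by the genotype in their titles.

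Gene symbols came from the annotation of the array platform: 34945 had 1 symbol, 932 several, 9160 none, and 64 were controls. Intensities were used as log2(intensity + 16) and quantile normalized. The probe set with the highest mean stood for each gene, and the lowest 40% of probe sets by mean were left out (an intensity of 48.3), which left 13718 genes. The test was limma 3.58.1 (lmFit, then eBayes; R 4.3.3) with genotype as its single term, Benjamini-Hochberg adjustment and a threshold of 0.05. A fit over all 34945 single-symbol probe sets, with no dim filter, gave the values of further probe sets; 0.0744% of them passed. The fit was checked on simulated data with independent noise and no outlying array, so the check does not cover the effect of f/f replicate 3. Promoters were searched and figures drawn in Python 3.11.15 with matplotlib 3.10.9.

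All members could be named, and up to 4 genes with the lowest p from each comparison list. Members and lists were chosen with earlier results of these data known. Same-numbered arrays did not deviate together (correlations -0.0033, -0.14 and -0.47), and those of unlike number ran from -0.47 to 0.43. With 3 arrays per genotype this cannot exclude a pairing. The labels state none, and the arrays were treated as unpaired. Alternatives covered scaling, pseudocount, dim filter, probe set choice, variance model, array weights, replicate block, each array left out and the threshold; those for the residual SD and range counts were chosen after seeing the data.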

Additional observations from a re-analysis of the deposited data

How the results depend on the processing

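Over 18 alternatives, the number of genes that passed over the whole array was 13 with the design used, 26 with every probe set on its own, 21 with a variance trend, 215 with array weights, 6 with the replicate number as a block, 21 at an adjusted p of 0.10, and 4 (d/d replicate 1 left out) to 88 (f/f replicate 3 left out) over the fits on 5 arrays. The number of members that passed in limma was 0 in 16 of these; it was 2, Dusp16 and Jun, with array weights, and 0 to 1 over the fits on 5 arrays, the 1 being Jun where f/f replicate 3 was left out. The replicate block called 0 members, and since the labels state no pairing by number it is not read further. The median of the members lay between -0.070 (d/d replicate 3 left out) and 0.027 (f/f replicate 2 left out). Errfi1 passed in all 18. Signs of members near 0 turned with array weights for Dusp10 (0.038), Spry4 (0.11), Spred1 (0.040), Spred2 (-0.0056), Etv4 (0.00092), Fosl1 (-0.0041) and Ier2 (-0.019), with the mean of probe sets for Dusp8 (-0.0081), Spry4 (0.14) and Spred1 (0.030), and with values as deposited for Dusp8 (-0.019) and Spred2 (-0.0089). Over the fits on 5 arrays, ranges that crossed 0 were -0.0067 to 0.18 for Dusp4, -0.075 to 0.066 for Dusp8, -0.090 to 0.074 for Dusp10, -0.12 to 0.021 for Spry1, -0.15 to 0.17 for Spry4, -0.24 to 0.065 for Spred1, -0.011 to 0.034 for Spred2, -0.057 to 0.19 for Etv5, -0.15 to 0.62 for Fos, -0.21 to 0.22 for Fosb, -0.018 to 0.089 for Fosl1, -0.81 to 0.20 for Junb, -0.23 to 0.25 for Myc, -0.044 to 0.16 for Ier2, -0.41 to 0.13 for Klf10 and -0.47 to 0.25 for Btg2. The probe sets of Dusp4, Spry1, Spry4, Fos, Fosb and Klf4 lie under a dim filter of 60%, so that setting gave no value for them. The number of arrays limits the precision, and dim members have little signal over the background.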
